A study of Mus musculus with 6 samples.

Results

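The genes described here are the core of the G1 to S switch of the cell cycle in NIH/3T3 cells, an established line of mouse embryonic fibroblasts. They are the D-type cyclins Ccnd1, Ccnd2 and Ccnd3, the E-type cyclins Ccne1 and Ccne2, the kinases Cdk2, Cdk4 and Cdk6, the retinoblastoma gene Rb1 and the transcription factor gene E2f1. These 10 genes were chosen by symbol, from the Ensembl identifiers of a count table of 54752 mouse genes. Their values were not part of that rule, though earlier results of these data were known when genes and lists were chosen. All 10 were among the 9518 genes tested, which had at least 10 CPM (read counts scaled to library size) in more than 3 of the libraries.

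RNA sequencing was done on 3 groups of 2 libraries each, all harvested after 72 h. The vehicle group received PBS and no TGF-β1. The TGF-β1 + DMSO group received TGF-β1 at 1 ng/ml with the solvent DMSO, and the TGF-β1 + BI6727 group received the same dose of TGF-β1 with BI6727 (volasertib), an inhibitor of the mitotic kinase PLK1, at 5 μM. The study asked how TGF-β1, which turns fibroblasts into contractile myofibroblasts, and PLK1 inhibition alter gene expression. No library here had DMSO without TGF-β1, so the effects of TGF-β1 and of DMSO cannot be told apart in the comparison with vehicle. The labels name no solvent for the BI6727 group. Effects of the inhibitor and of a possible solvent difference therefore cannot be told apart between the treated groups. All cells were of 1 immortalised line. The labels do not say that replicates came from separate cultures, so p-values measure the spread between these libraries, which may be technical.

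In G1, growth factor signals raise the D-type cyclins, which bind and activate CDK4 and CDK6. These kinases begin to phosphorylate the retinoblastoma protein RB, which otherwise holds E2F transcription factors inactive. Freed E2F switches on genes of DNA synthesis together with the E-type cyclins and E2F1 itself, and cyclin E with CDK2 completes the phosphorylation of RB. In epithelial cells TGF-β is known as a brake on this circuit, while in fibroblasts it can also act as a growth signal.

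The libraries held 18362378 to 24452153 counts assigned to genes. DMSO replicate 2 stood apart from its partner: the SD of the log2 difference between replicates was 0.377 in the DMSO group, against 0.163 in the vehicle and 0.147 in the BI6727 group. The difference followed gene length, with long genes low in DMSO replicate 2. Of the fibroblast markers examined, 11 of 12 were above 1 CPM in every library (summed level 7514 to 10910 CPM). No epithelial marker of 8 and no endothelial marker of 6 passed 1 CPM in every library (sums 0.361 to 2.78 and 0.310 to 4.00 CPM), with Esrp1, Krt5, Emcn and Kdr at 0. Of the blood cell markers 1 of 8, Cd68, did so, with a sum of 3.76 to 5.65 CPM and Hbb-bs, Cd3e and Adgre1 among those at 0. In bulk RNA, fewer cells in a cycle phase and less RNA per cell cannot be told apart.

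RefSeq promoter windows were matched for 6 of the 10 genes. They are shown for the genes whose transcripts were measured as rising (Ccne1, Cdk2), falling (Ccnd3) and most abundant (Cdk4), cut to the longest stretch free of annotated exons upstream of the start site. The build is GRCm38.p6, and letters run 5′ to 3′ on the strand of the gene. Capitals mark the Sp1 motif GGGCGG on either strand and the E box CACGTG, the binding motif of MYC; the E box was added after the sequences were seen.
Ccne1, chr7:38107535-38107740, minus strand: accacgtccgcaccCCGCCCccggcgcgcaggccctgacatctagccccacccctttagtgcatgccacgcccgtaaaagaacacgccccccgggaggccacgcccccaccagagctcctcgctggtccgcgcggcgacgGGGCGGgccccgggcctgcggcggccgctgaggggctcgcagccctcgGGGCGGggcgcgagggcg
Cdk2, chr10:128705052-128705179, minus strand: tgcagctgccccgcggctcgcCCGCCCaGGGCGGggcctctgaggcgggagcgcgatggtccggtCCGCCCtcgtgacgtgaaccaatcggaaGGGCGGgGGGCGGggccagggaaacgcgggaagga
Ccnd3, chr17:47504801-47505050, plus strand: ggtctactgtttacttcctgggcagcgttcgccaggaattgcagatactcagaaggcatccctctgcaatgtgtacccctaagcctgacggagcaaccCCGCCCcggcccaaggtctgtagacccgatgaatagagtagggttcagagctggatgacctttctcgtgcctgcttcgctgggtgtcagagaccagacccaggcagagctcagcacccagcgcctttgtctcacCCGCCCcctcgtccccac
Cdk4, chr10:127063285-127063533, plus strand: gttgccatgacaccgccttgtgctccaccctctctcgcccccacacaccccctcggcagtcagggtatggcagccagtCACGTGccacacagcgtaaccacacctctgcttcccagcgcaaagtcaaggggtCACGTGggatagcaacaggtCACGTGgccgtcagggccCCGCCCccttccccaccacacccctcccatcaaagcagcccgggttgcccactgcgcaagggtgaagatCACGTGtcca

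These stretches held 3 Sp1 motifs before Ccne1, 5 before Cdk2, 2 before Ccnd3 and 1 before Cdk4, and 4 E boxes before Cdk4. Among all 32851 RefSeq windows of 250 bases, 32.7% held at least 1 Sp1 motif and 6.02% an E box. The E2F motifs TTTCGCGC and TTTGGCGC, present in 0.256% and 0.417% of all windows, were found in no window of the 6 genes on either strand. The AP-1 motif TGANTCA (6.75% of all windows) and the CRE motif TGACGTCA (1.55%) were not found there either. The absence of these letters says nothing about binding elsewhere. The windows of E2f1 and Cdk6 are not printed, since the first lay wholly within annotated exons and Cdk6 was not called in any comparison. Ccnd3 had a second window, whose exon-free stretch is chr17:47593217-47593435 and holds 1 Sp1 motif. It is not printed either.

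Ccnd1 (ENSMUSG00000070348.5, chr7:144929931-144939925, minus strand, mm10) encodes cyclin D1, the D-type cyclin most closely tied to mitogen signals. Its normalised level was 228 and 305 CPM in the vehicle libraries, 395 and 397 CPM in the TGF-β1 + DMSO libraries and 485 and 542 CPM in the TGF-β1 + BI6727 libraries. No value of any group overlapped another group, and the order ran vehicle, DMSO, BI6727.
Ccnd1 rose in the TGF-β1 + DMSO group compared to vehicle by 0.57 ± 0.147 on the log2 scale (SE; 1.49-fold; edgeR quasi-likelihood test with Benjamini-Hochberg adjustment over all genes tested, hereafter edgeR adjusted p, = 0.0307). In the TGF-β1 + BI6727 group it rose by 0.95 ± 0.148 compared to vehicle (1.93-fold, edgeR adjusted p = 0.00432), just under the 2-fold limit used below. The direct comparison of BI6727 with DMSO gave 0.37 with a 95% interval of 0.03 to 0.72, which was not called (edgeR adjusted p = 0.722). The rise over vehicle depended on vehicle replicate 1, the lower of that pair: without it the DMSO difference was 0.37 (edgeR adjusted p = 0.216), and without vehicle replicate 2 it was 0.80 (edgeR adjusted p = 0.0395). The exons of Ccnd1 share 23.4% of their bases with LTO1 on the opposite strand, and whether counting used strand is not given in the sources used here. LTO1 had 379 to 626 counts per library, against 4388 to 13093 for Ccnd1. Its log2 difference from vehicle was 0.36 with DMSO and 0.43 with BI6727 (edgeR adjusted p = 0.0727 and 0.0431), in the direction of Ccnd1. The part of LTO1 in the Ccnd1 counts was not tested.

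The other D-type cyclins ran lower with TGF-β1. Ccnd3 (ENSMUSG00000034165.16, chr17:47505051-47599691, plus strand) encodes cyclin D3, and the more upstream of its promoter windows is the third printed above. Ccnd3 stood at 124 and 125 CPM in vehicle, 102 and 101 CPM with DMSO and 90.2 and 86.2 CPM with BI6727, again with no overlap between groups and in the order opposite to Ccnd1.
Ccnd3 fell by 0.30 on the log2 scale in the DMSO group (SE 0.088, edgeR adjusted p = 0.0483) and by 0.49 in the BI6727 group (SE 0.088, edgeR adjusted p = 0.00736), both against vehicle. The first of these calls was lost in all 8 other fits with every library kept (edgeR or DESeq2 adjusted p 0.0548 to 0.312), and removal of the length trend left a difference of -0.14; the second was kept in all 8. BI6727 against DMSO gave -0.20 (95% interval -0.40 to 0.01, edgeR adjusted p = 0.745).
Ccnd2 (ENSMUSG00000000184.12, chr6:127125162-127152193, minus strand), the gene of cyclin D2, stood at 124 and 130 CPM in vehicle, 115 and 89.3 CPM with DMSO and 103 and 106 CPM with BI6727. Both treated groups lay below vehicle without overlap, but the DMSO pair was spread widely. The log2 difference was -0.32 (95% interval -0.62 to -0.02, edgeR adjusted p = 0.118) for DMSO and -0.28 (-0.59 to 0.02, edgeR adjusted p = 0.158) for BI6727, both against vehicle and neither called. The first was -0.52 without DMSO replicate 1 and -0.14 without DMSO replicate 2, each with 1 DMSO library kept and the spread of that group not measured. In DMSO replicate 2 the fitted length trend was -0.24 for Ccnd2 and -0.21 for Ccnd3 on the log2 scale; its part in these differences was examined only by removing the trend, which moved Ccnd2 to -0.16.

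**Figure D1:**
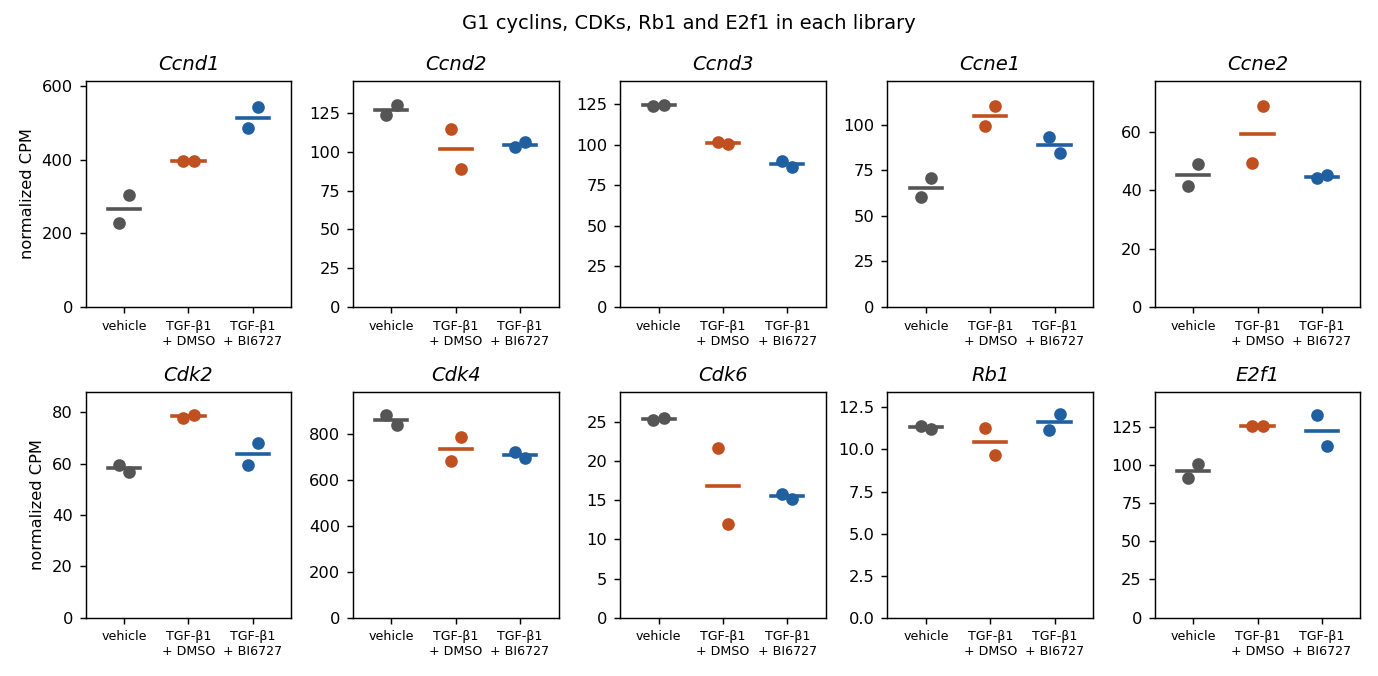
Normalised CPM (y axis, linear, from 0) of the 10 genes in each library, with the 3 groups on the x axis, a point for each of the 2 libraries of a group and a bar at their mean. Ccnd1 stands at 228 and 305 CPM in vehicle and 485 and 542 CPM with BI6727. Ccnd3 stands at 124 and 125 CPM in vehicle and 90.2 and 86.2 CPM with BI6727, and Ccne1 and Cdk2 are highest with DMSO.

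The make-up of the D-type family differed between groups. Per kilobase of exon, Ccnd1 made up 63.9 and 69.8% of D-type cyclin counts in vehicle. Its shares were 77.9 and 80.1% with DMSO and 82.9 and 84.5% with BI6727. The length used merges all annotated exons of a gene, whichever transcripts were expressed, so levels of different genes compare only roughly. Without division by length the mean shares of Ccnd1 were 51.2, 66.1 and 72.7% in vehicle, DMSO and BI6727. The shares did not overlap between groups, and the summed D-type level went the same way, from 75.7 and 92.8 CPM per kilobase in vehicle to 108 and 105 with DMSO and 124 and 136 with BI6727. These are descriptions without a test: with 2 libraries against 2, an exact permutation test cannot give a p below 0.33.

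**Figure D2:**
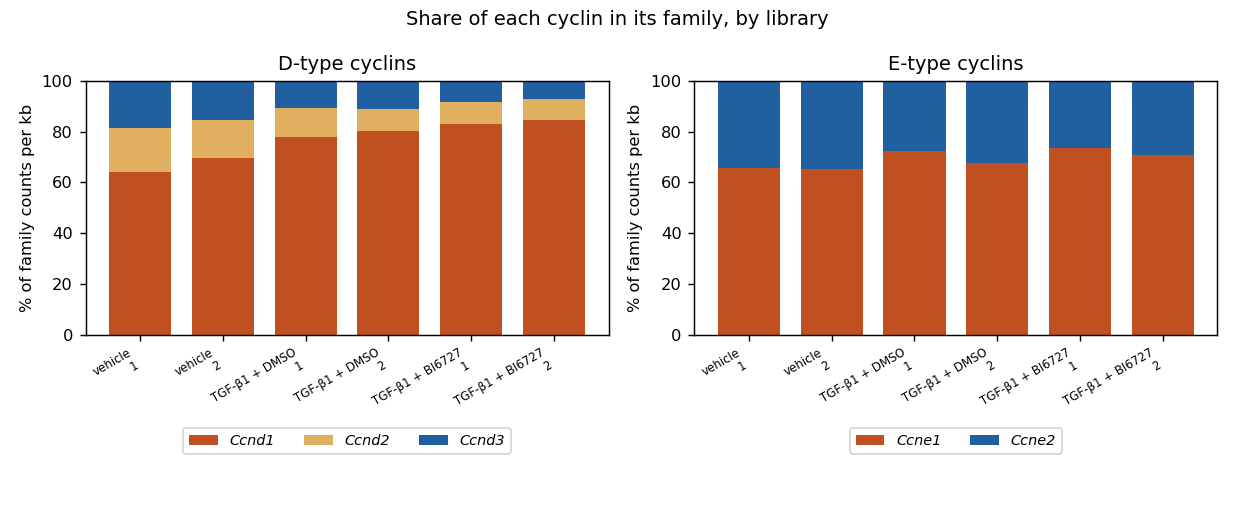
Share of each cyclin in its family (y axis, percent of the family's counts per kilobase of exon) for the 6 libraries on the x axis, with D-type cyclins on the left and E-type cyclins on the right. Ccnd1 takes 63.9 to 69.8% of the D-type counts in vehicle and 82.9 to 84.5% with BI6727, while Ccne1 takes 65.5 to 73.6% of the E-type counts in all libraries.

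Cdk4 and Cdk6 encode the kinase partners of the D-type cyclins. Cdk4 (ENSMUSG00000006728.12, chr10:127063534-127067920, plus strand) stood at 886 and 842 CPM in vehicle, 682 and 789 CPM with DMSO and 725 and 696 CPM with BI6727. Vehicle lay above both treated groups, which overlapped each other. The log2 difference from vehicle was -0.23 (95% interval -0.50 to 0.04, edgeR adjusted p = 0.183) with DMSO and -0.28 (-0.55 to -0.01, edgeR adjusted p = 0.118) with BI6727, and neither was called. The first was -0.33 without DMSO replicate 2 and -0.14 without DMSO replicate 1, each with 1 DMSO library kept. The gene shares 19.7% of its exon bases with Tspan31 on the opposite strand, which had 1942 to 2776 counts per library against 13038 to 18496 for Cdk4.
Cdk6 (ENSMUSG00000040274.11, chr5:3341485-3531008, plus strand) is the longest gene model of the set. It stood at 25.3 and 25.6 CPM in vehicle, 21.7 and 11.9 CPM with DMSO and 15.9 and 15.2 CPM with BI6727. Both vehicle values were above all the others, and the DMSO values lay on either side of the BI6727 pair. The log2 difference from vehicle was -0.60 ± 0.255 (SE, edgeR adjusted p = 0.133) with DMSO and -0.71 ± 0.256 (SE, edgeR adjusted p = 0.0839) with BI6727, so Cdk6 was not called in either.
The DMSO value of Cdk6 was set by which DMSO library was kept. It was -1.10 without DMSO replicate 1 and -0.22 without DMSO replicate 2, where the fitted length trend for Cdk6 was -0.38. Each of these fits kept 1 DMSO library, so the spread of that group was not measured. For BI6727 against vehicle the difference was -0.72 with either DMSO library left out, beside -0.71 with all libraries. Per kilobase, Cdk4 made up 99.3 to 99.7% of the summed Cdk4 and Cdk6 counts in every library.

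Ccne1 (ENSMUSG00000002068.16, chr7:38097984-38107534, minus strand) encodes cyclin E1, a classical E2F target that activates CDK2. It stood at 60.4 and 70.6 CPM in vehicle, 99.2 and 110 CPM with DMSO and 93.6 and 84.5 CPM with BI6727. Both treated groups were above vehicle without overlap, and the BI6727 pair lay between vehicle and DMSO.
Ccne1 rose by 0.68 ± 0.12 on the log2 scale in the DMSO group compared to vehicle (SE; 1.6-fold, edgeR adjusted p = 0.00792), the largest of the 10 differences in that comparison past an adjusted p of 0.05. It rose by 0.44 ± 0.12 in the BI6727 group compared to vehicle (SE; 1.36-fold, edgeR adjusted p = 0.0356). The direct comparison of BI6727 with DMSO gave -0.23 (95% interval -0.51 to 0.05, edgeR adjusted p = 0.759). The DMSO call was kept in all 8 other fits with every library and was lost without vehicle replicate 1 (0.56, edgeR adjusted p = 0.106); no exon of Ccne1 overlaps another annotated gene.
Ccne2 (ENSMUSG00000028212.16, chr4:11191351-11204779, plus strand), the gene of cyclin E2, stood at 41.5 and 48.9 CPM in vehicle, 49.4 and 69.0 CPM with DMSO and 44.1 and 45.3 CPM with BI6727. A single library, DMSO replicate 2, was well above the rest. The log2 difference of DMSO from vehicle was 0.39 (95% interval -0.02 to 0.79, edgeR adjusted p = 0.148) and was not called. It was 0.60 without DMSO replicate 1 and 0.14 without DMSO replicate 2, each with 1 DMSO library kept. BI6727 differed from vehicle by -0.02 (-0.43 to 0.39, edgeR adjusted p = 0.953). Per kilobase, Ccne1 made up 65.5 ± 0.111% of E-type counts in vehicle, 70.1 ± 3.38% with DMSO and 72.3 ± 1.85% with BI6727 (SD, n = 2 each).

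Cdk2 (ENSMUSG00000025358.16, chr10:128697939-128705031, minus strand) encodes the kinase partner of the E-type cyclins. It stood at 59.5 and 57.0 CPM in vehicle, 77.9 and 79.0 CPM with DMSO and 59.6 and 68.3 CPM with BI6727. The DMSO pair was above all other libraries, and the lower BI6727 library was within 1 CPM of vehicle.
Cdk2 rose by 0.43 ± 0.109 on the log2 scale in the DMSO group compared to vehicle (SE; 1.35-fold, edgeR adjusted p = 0.0288). BI6727 against DMSO gave -0.29 (95% interval -0.55 to -0.04, edgeR adjusted p = 0.704), and BI6727 against vehicle gave 0.14 (-0.12 to 0.39, edgeR adjusted p = 0.405), neither of them called. With the replicate number as a block the rise with DMSO missed the limit (edgeR adjusted p = 0.0586).

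Rb1 (ENSMUSG00000022105.6, chr14:73183673-73325822, minus strand), which encodes the retinoblastoma protein, was nearly level. It stood at 11.4 and 11.2 CPM in vehicle, 11.2 and 9.68 CPM with DMSO and 11.1 and 12.1 CPM with BI6727, and its groups overlapped in every comparison. Log2 differences were -0.11 (95% interval -0.47 to 0.24, edgeR adjusted p = 0.600) for DMSO against vehicle, 0.15 (-0.20 to 0.50, edgeR adjusted p = 0.869) for BI6727 against DMSO and 0.04 (-0.31 to 0.39, edgeR adjusted p = 0.885) for BI6727 against vehicle. With 200 to 292 counts per library Rb1 was the most thinly counted of the 10, and 14.9% of its exon bases are shared with Rcbtb2 and Lpar6 on the opposite strand. Rcbtb2 had 769 to 1850 counts and fell by 0.78 in the DMSO group and 1.01 in the BI6727 group compared to vehicle (edgeR adjusted p = 0.00363 and 0.00112), and its part in the Rb1 counts was not tested.

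E2f1 (ENSMUSG00000027490.17, chr2:154559407-154569892, minus strand) encodes the activating factor that RB holds in check. It stood at 91.6 and 101 CPM in vehicle, 125 CPM in both DMSO libraries and 132 and 112 CPM with BI6727. Both treated groups lay above vehicle without overlap, and they overlapped each other.
E2f1 rose by 0.38 ± 0.112 on the log2 scale with DMSO compared to vehicle (SE; 1.30-fold, edgeR adjusted p = 0.0470), close to the limit: 4 of the 8 other fits with every library kept the call, and the block by replicate number gave edgeR adjusted p = 0.0864. BI6727 gave 0.35 against vehicle (95% interval 0.08 to 0.61, edgeR adjusted p = 0.0619) and -0.04 against DMSO (-0.30 to 0.23, edgeR adjusted p = 0.956), neither called. The first was 0.22 (edgeR adjusted p = 0.423) without BI6727 replicate 1 and 0.46 (edgeR adjusted p = 0.120) without BI6727 replicate 2.

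**Figure D3:**
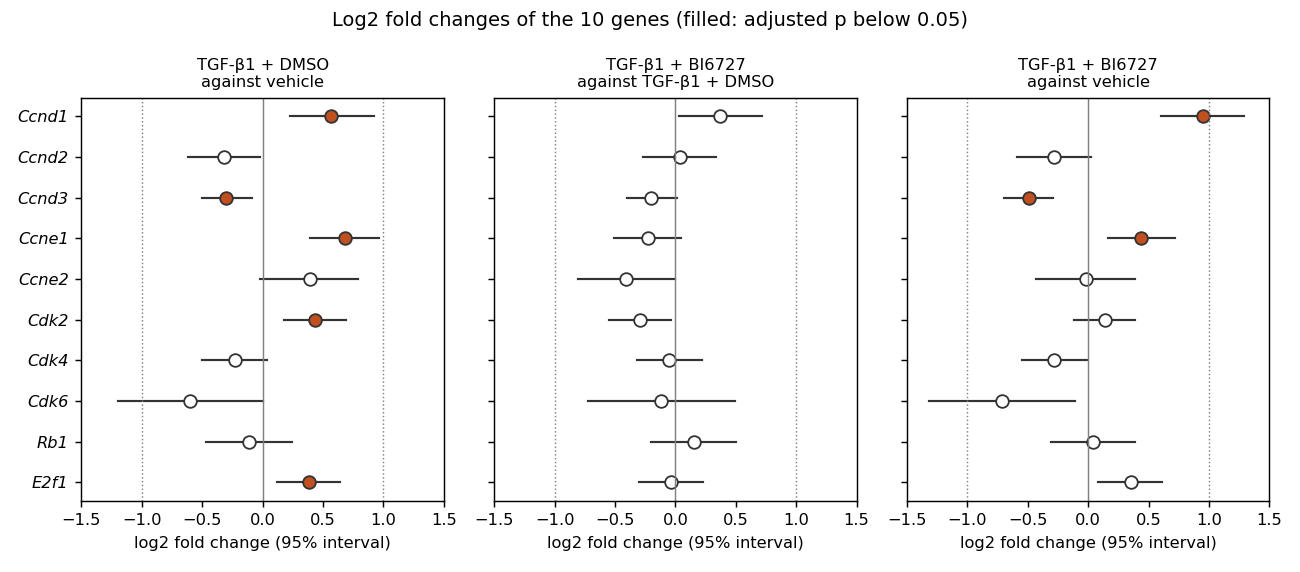
Log2 fold change (x axis, with the 95% interval as a line) of the 10 genes (y axis) in the 3 comparisons, filled where the edgeR adjusted p was below 0.05, with dotted lines at a 2-fold change. Ccne1 (0.68), Ccnd1 (0.57), Cdk2 (0.43), E2f1 (0.38) and Ccnd3 (-0.30) are filled in the first panel, none in the second, and Ccnd1 (0.95), Ccne1 (0.44) and Ccnd3 (-0.49) in the third.

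For TGF-β1 + DMSO against vehicle, then, 4 of the 10 genes rose (Ccnd1, Ccne1, Cdk2, E2f1) and 1 fell (Ccnd3) at an edgeR adjusted p below 0.05, where 23.0% of all genes tested were called (11.0% higher and 12.0% lower). None passed the stricter rule of an edgeR adjusted p below 0.01 with a change above 2-fold, which called 5.10% of all genes; DESeq2 called none of the 10 by that rule either (5.48% of all genes), and 6 of 10 had an unadjusted edgeR p below 0.05 (37.8% of all genes). The groups did not overlap for 9 of the 10, against 62.9% of all genes. The median log2 difference was 0.135, beside -0.005 over all genes.
For TGF-β1 + BI6727 against vehicle, 2 rose (Ccnd1, Ccne1) and 1 fell (Ccnd3) at an edgeR adjusted p below 0.05, where 24.5% of all genes were called (11.3% higher and 13.2% lower). None passed the stricter rule (5.31% of all genes), DESeq2 called none of the 10 by it (5.67% of all genes), and 6 of 10 had an unadjusted edgeR p below 0.05 (37.7% of all genes). The groups did not overlap for 8 of the 10, against 76.8% of all genes. At an edgeR adjusted p below 0.01 and any fold, Ccnd1 and Ccnd3 passed here (10.9% of all genes) and Ccne1 with DMSO (9.82% of all genes). The median log2 difference was 0.01, beside 0.003 over all genes. This comparison shares its vehicle libraries with the one before.
For TGF-β1 + BI6727 against TGF-β1 + DMSO, no gene was called by edgeR under either rule (0% of the 9518). The smallest edgeR adjusted p of the 10 was 0.704. DESeq2 called 11 genes (0.116%) by the stricter rule and 39 (0.410%) by the looser one, with none of the 10 in either. An unadjusted edgeR p below 0.05 was found for 2 of the 10, Ccnd1 (higher) and Cdk2 (lower), beside 6.68% of all genes. The groups did not overlap for 5 of the 10, against 34.1% of all genes, with 1 higher (17.0% of all genes) and 4 lower (17.1%), and the median was -0.085. Without DMSO replicate 1, the same comparison gave 0.37 for Ccnd1, 0.23 for Ccnd2, -0.31 for Ccne1, -0.62 for Ccne2 and -0.30 for Cdk2, each past an edgeR adjusted p of 0.05 (0.0197, 0.0424, 0.0221, 0.000378 and 0.0285), where 31.7% of all genes passed that limit. With any other library left out none of the 10 passed. The fit without DMSO replicate 1 kept 1 DMSO library, so the spread of that group was not measured there. The intervals given above leave room for changes in either direction for most of these genes, and a p above the limit does not show that the groups were alike.

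Per kilobase of exon the order of levels in vehicle was Cdk4 (266 ± 9.73 CPM per kilobase, SD, n = 2), Ccnd1 (56.6 ± 11.6), E2f1 (30.5 ± 2.07), Ccne1 (24.6 ± 2.72), Ccnd3 (14.2 ± 0.0678), Ccnd2 (13.5 ± 0.482), Ccne2 (12.9 ± 1.49), Cdk2 (9.36 ± 0.283), Rb1 (1.88 ± 0.0217) and Cdk6 (1.82 ± 0.0144). Of these neighbours, Ccnd2 and Ccne2 overlapped. The order depends on the merged exon length of each gene, which need not be that of the transcripts expressed. In the DMSO group E2f1 (39.8 ± 0.028) and Ccne1 (39.3 ± 2.94) could not be ordered, nor could Ccnd3 and Ccnd2, and Ccne2 (16.9 ± 3.97) and Cdk2 (12.6 ± 0.117) stood above both. Cdk4 (219 ± 6.29) and Ccnd1 (109 ± 8.52) still headed the order with BI6727, Rb1 (1.93 ± 0.113) and Cdk6 (1.11 ± 0.0355) closed it, and Ccnd2, Cdk2 and Ccnd3 overlapped as neighbours.

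**Figure D4:**
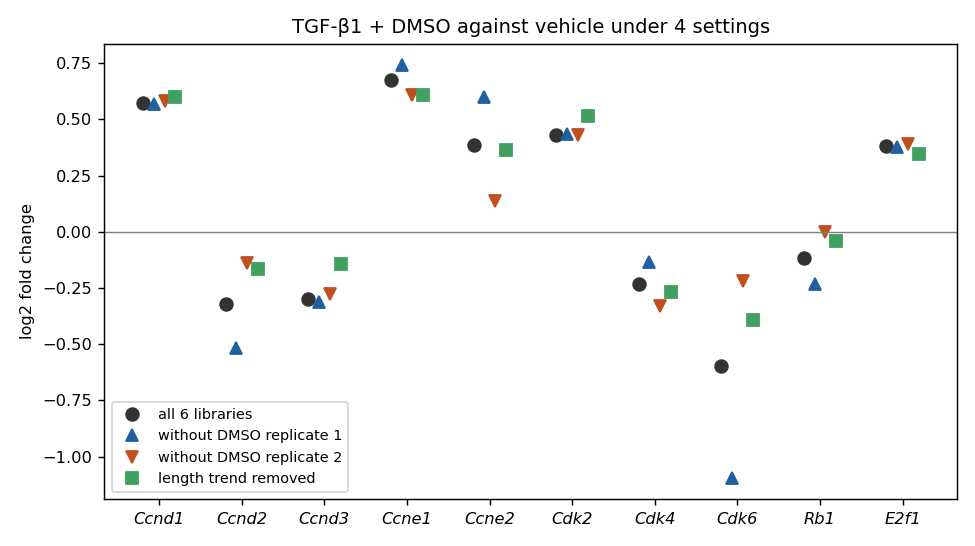
Log2 fold change of TGF-β1 + DMSO against vehicle (y axis) for the 10 genes (x axis), with all libraries, without either DMSO library, and with the length trend of each library removed. Ccnd1, Cdk2 and E2f1 stay close together under the 4 settings, while Cdk6 runs from -1.10 without DMSO replicate 1 to -0.22 without DMSO replicate 2 and Ccne2 from 0.14 to 0.60.

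Among the inhibitors of these kinases, the vehicle libraries stood apart most for Cdkn2c. Cdkn2c, which encodes the CDK4 and CDK6 inhibitor p18, stood at 263 and 244 CPM in vehicle, 119 and 131 CPM with DMSO and 116 and 115 CPM with BI6727. Vehicle lay far above both treated groups, and the BI6727 pair lay just below the DMSO pair.
Compared to vehicle, Cdkn2c fell by 1.02 ± 0.098 with DMSO and by 1.13 ± 0.098 with BI6727 on the log2 scale (SE; edgeR adjusted p = 0.000579 and 0.000346), and no other of the 4 inhibitors tested passed the stricter rule (5.10 and 5.31% of all genes). With 1 library left out both differences stayed past an edgeR adjusted p of 0.05 (-1.08 to -0.95 and -1.18 to -1.08), while the stricter rule was met in 3 of the 6 such fits in each comparison, missed without either vehicle library or DMSO replicate 1 for DMSO and without vehicle replicate 1 or either BI6727 library for BI6727. Cdkn1a, the gene of p21 and named after its value was seen, stood at 340 and 375 CPM in vehicle, 598 and 698 CPM with DMSO and 622 and 670 CPM with BI6727, and rose by 0.86 and 0.85 (edgeR adjusted p = 0.00294 and 0.00277). Cdkn1b, the gene of p27 and likewise named after its value was seen, fell by 0.39 with BI6727 compared to vehicle (edgeR adjusted p = 0.0370), and its difference was -0.31 with DMSO (edgeR adjusted p = 0.0778). Cdkn2a and Cdkn2b, the genes of p16, ARF and p15, had 0 counts in every library, which allows up to 0.163 CPM in the smallest library, and Cdkn1c had at most 2 counts.

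Of the RB relatives, other E2Fs and DP partners, 9 of 11 were tested and none passed the stricter rule. Against vehicle, that rule called 5.10% of all genes with DMSO and 5.31% with BI6727. The looser rule called 23.0 and 24.5% of all genes in these comparisons. With DMSO compared to vehicle Rbl2, the gene of the RB relative p130, fell by 0.89 (edgeR adjusted p = 0.0221) and E2f5, a repressor E2F, rose by 0.58 (edgeR adjusted p = 0.0293). With BI6727 compared to vehicle Rbl1, the gene of p107, fell by 0.66 (edgeR adjusted p = 0.0159) and E2f5 rose by 0.66 (edgeR adjusted p = 0.0174); Rbl2 and E2f5 were named after their values were seen. The most abundant of the list were Tfdp1, the DNA-binding partner of E2Fs, with 210 ± 0.603 CPM in vehicle and 207 ± 16 CPM with DMSO, and E2f4, a repressor E2F, with 105 ± 0.849 and 88.5 ± 11 CPM (SD, n = 2 each). The median log2 difference of the list was -0.233 with DMSO and -0.275 with BI6727 against vehicle, beside -0.005 and 0.003 over all genes.

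Of the 37 of 38 E2F target genes tested, 3 rose and 4 fell with DMSO compared to vehicle at an edgeR adjusted p below 0.05, and the median was 0.02. Of all genes, 11.0% were called higher and 12.0% lower at that limit. Cdt1 (0.35), a licensing factor of replication, Rrm2 (0.32), a ribonucleotide reductase subunit, and Mybl2 (0.60), a transcription factor, rose (edgeR adjusted p 0.0279 to 0.0380). Tk1 (-0.67), thymidine kinase, Lig1 (-0.61), a DNA ligase, Pola1 (-0.55), the catalytic subunit of polymerase alpha, and Dnmt1 (-0.58), the maintenance DNA methyltransferase, fell (edgeR adjusted p 0.00499 to 0.0322), with Dnmt1 at -0.35 without DMSO replicate 2. Ccne1 and E2f1, themselves known as E2F targets, were above vehicle, whereas called genes of the list lay on both sides of it.
With BI6727 compared to vehicle none of the 37 was called higher and 4 were called lower at an edgeR adjusted p below 0.05. Of all genes, 11.3% were called higher and 13.2% lower. Among the 4 were Tk1, Lig1 (-0.69) and the ribonucleotide reductase gene Rrm1 (-0.38), and their edgeR adjusted p ran from 0.000575 to 0.0341. By the stricter rule 5.31% of all genes were called. Tk1 alone passed the stricter rule, at 125 and 128 CPM in vehicle, 72.8 and 86.1 CPM with DMSO and 58.4 and 57.1 CPM with BI6727, a fall by 1.13 ± 0.111 (SE, edgeR adjusted p = 0.000575), and met that rule only without a DMSO library when 1 library was left out. Apart from Tk1, the target genes named here were picked after their values were seen.

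Of the cyclins that follow G1 and Cdk1, 5 of 6 were tested and 3 were lower at an edgeR adjusted p below 0.05 with both DMSO and BI6727 compared to vehicle (12.0 and 13.2% of all genes). Ccna2, Ccnb1 and Ccnb2 fell with DMSO compared to vehicle by 0.40, 0.43 and 0.86 (edgeR adjusted p = 0.0283, 0.0186 and 0.0150) and with BI6727 by 0.76, 0.50 and 0.96 (edgeR adjusted p = 0.00232, 0.0106 and 0.00916). Cdk1, their kinase, differed from vehicle by -0.09 and -0.05 (edgeR adjusted p = 0.572 and 0.758), and Ccnf by 0.05 and 0.02 (edgeR adjusted p = 0.747 and 0.903). Ccna1 had 0 counts in every library, and Ccnb1 and Ccnb2 were named after their values were seen.
Of the 13 activators and turnover factors of G1 cyclin-CDK complexes none was called with DMSO compared to vehicle (smallest edgeR adjusted p = 0.0684). An edgeR adjusted p below 0.05 was found for 23.0% of all genes there and for 24.5% with BI6727 compared to vehicle. With BI6727 compared to vehicle Fbxw7, the ubiquitin ligase adaptor that degrades cyclin E, rose by 0.68 (edgeR adjusted p = 0.0362), and Skp2, the adaptor that degrades p27, fell by 0.53 (edgeR adjusted p = 0.0132), both named after their values were seen. Its most abundant members were the kinase chaperone gene Cdc37, the scaffold gene Cul1 and the CDK-binding gene Cks1b, with 267, 200 and 144 CPM in vehicle. No gene of the lists was called by edgeR between BI6727 and DMSO.

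**Figure D5:**
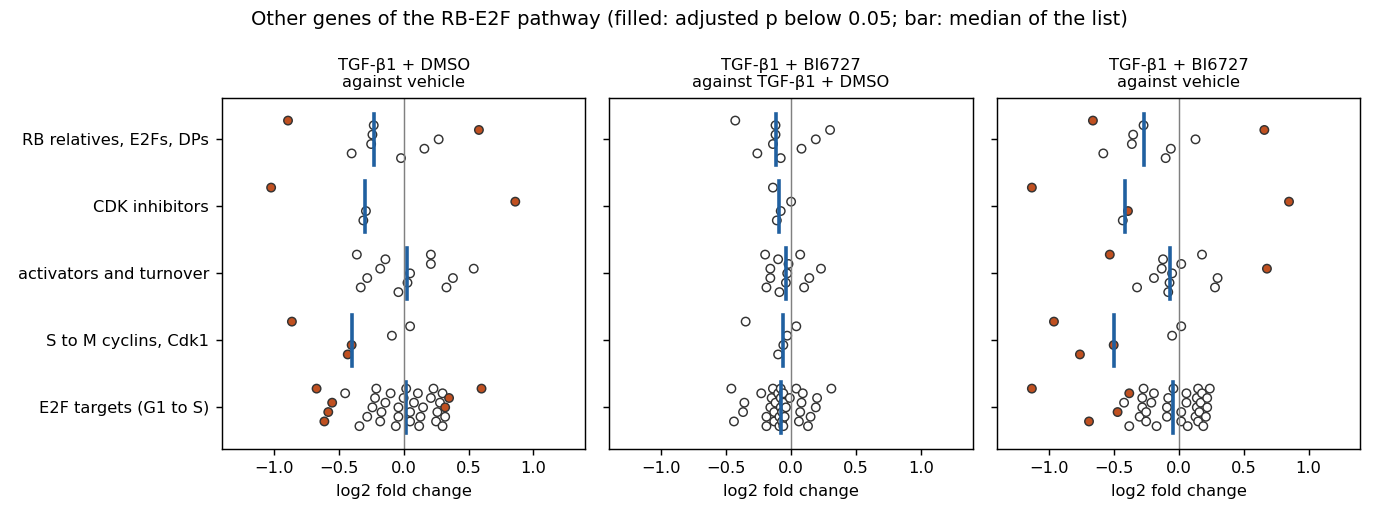
Log2 fold change (x axis) of the tested genes of 5 pathway lists (y axis) in the 3 comparisons, a point for each gene, filled where the edgeR adjusted p was below 0.05, with a vertical bar at the median of the list. Cdkn2c is the leftmost point of the first panel at -1.02 and Cdkn1a the rightmost at 0.86, and no point is filled in the middle panel.

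The genes whose pattern over the 6 libraries was most like that of 3 of the genes were found by the root mean square difference of log2 CPM centred on each gene's mean. For Ccnd1 these were Fbxo28 (0.104), Btc (0.117) and Gm5424 (0.118). For Ccne1 they were Csrp1 (0.040), Jmjd6 (0.060) and Chic2 (0.063), and for E2f1 Snx11 (0.042), Impdh1 (0.044) and Slc39a7 (0.044). Fbxo28 stood at 53.6 and 58.9 CPM in vehicle, 89.8 and 83.6 CPM with DMSO and 105 and 106 CPM with BI6727, in the same order of groups as Ccnd1. Csrp1 stood at 83.3 and 88.9, 132 and 146, and 123 and 113 CPM, with its highest values with DMSO, as Ccne1 had. These are descriptions with no test, and the shared order of groups follows from how these genes were picked.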

How the data were processed

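RNA from NIH/3T3 cells was depleted of ribosomal RNA and sequenced as single-end reads. Per the labels and the methods of the study, the authors aligned reads to mm10 with Subread (Subjunc) 1.6.4 and counted them per gene with featureCounts; the deposited values are raw read counts per Ensembl gene, and the strand setting is not given in the sources used here. Of 54752 identifiers 54723 matched a symbol. The filter was 10 CPM in more than 3 libraries (9518 genes). Counts were fitted with edgeR 4.0.16 in R 4.3.3 (TMM, quasi-likelihood, 3 group means, 3 residual degrees of freedom) and p-values were adjusted by Benjamini-Hochberg over all genes tested. DESeq2 1.42.0 was an alternative. Genes were called at an adjusted p below 0.01 with a change above 2-fold, the rule of the study, and by a second rule of an adjusted p below 0.05 at any fold. Normalised CPM used TMM library sizes, and totals of 18362378 to 24452153 counts set the precision; intervals and floors (3 counts) cover counting error and the fitted spread only. Levels per kilobase used the exon length of the table, with all annotated exons of a gene merged. Named were all 10 genes, those of each other list past the first rule in any comparison or otherwise its 3 most abundant, and for Ccnd1, Ccne1 and E2f1 the 3 genes with the most alike pattern. Genes and lists were chosen with earlier results of these data known. On simulated counts for the 9518 genes, 199 or 200 of 200 planted 3-fold changes were recovered in each comparison. Changes as small as those of the 10 genes were not simulated, so their recovery is not known. Alternatives were other scalings, filters, samples, thresholds, a replicate block, a length trend and each library left out in turn. Other genome annotation came from Gencode M21, and protein sequences were not used here.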

Additional observations from a re-analysis of the deposited data

How the results depend on the processing

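Leaving out 1 library reduces the residual degrees of freedom and assumes that a lone sample varies like the other groups. The threshold decided most counts. For DMSO against vehicle, 0 of the 10 genes passed the stricter rule. At any fold, 5 passed an adjusted p below 0.05 and 1 an adjusted p below 0.01. For BI6727 against vehicle these were 0, 3 and 2. Of the other pathway genes, 1 passed the stricter rule for DMSO against vehicle, with 14 and 4 at the looser limits. For BI6727 against vehicle 2 passed, with 14 and 6 at the looser limits. With 1 library left out, the Cdk6 difference of DMSO from vehicle ran from -1.1 to -0.22. The pathway lists held 37, 13, 9, 5 and 4 tested genes. Over all genes, the stricter rule and the limits of 0.05 and 0.01 called 5.10, 23.0 and 9.82% for DMSO against vehicle. For BI6727 against vehicle they called 5.31, 24.5 and 10.9% of all genes. With no division by exon length, Ccnd1 made up 51.2, 66.1 and 72.7% of D-type counts in vehicle, DMSO and BI6727, Ccne1 59.2, 64.1 and 66.5% of E-type counts, and Cdk4 97.1, 97.7 and 97.9% of Cdk4 and Cdk6 counts.

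A sign turned for uncalled values only. With the length trend removed, the Ccnd2 value of BI6727 against DMSO was -0.040. With 1 library left out, Rb1 ran from -0.23 to 0.0014 with DMSO and from -0.030 to 0.093 with BI6727, and Ccne2 from -0.13 to 0.11 with BI6727, each relative to vehicle. Relative to DMSO, BI6727 values ran from -0.14 to 0.23 for Ccnd2, -0.15 to 0.046 for Cdk4, -0.50 to 0.38 for Cdk6 and -0.16 to 0.081 for E2f1.

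In the other 8 fits with every library, the DMSO calls at an adjusted p below 0.05 held in 8 for Ccne1, 7 for Ccnd1, 6 for Cdk2, 4 for E2f1 and 0 for Ccnd3, and the BI6727 calls against vehicle in 8 for Ccnd1 and Ccnd3 and 7 for Ccne1. With 1 library left out, the DMSO calls held in 5 of 6 for Ccne1, 3 for Ccnd1 (lost without vehicle replicate 1 or either BI6727 library) and 2 each for Cdk2, E2f1 and Ccnd3, the kept ones of the last 3 being those without a DMSO library; the BI6727 calls held in 5 for Ccnd1 (edgeR adjusted p = 0.0509 without BI6727 replicate 2) and 2 each for Ccne1 and Ccnd3, again without a DMSO library. Values not called in the fit reported also passed that limit in some of the 8 fits with every library: for BI6727 against vehicle Cdk6 in 3 (DESeq2, only the groups compared, and the length trend removed), Cdk4 and E2f1 in 2 (the latter pair of settings) and Ccnd2 in 1 (only the groups compared), and for DMSO against vehicle Cdk4 in 1 (the length trend removed, edgeR adjusted p = 0.0347). With 1 library left out, the BI6727 differences from vehicle ran from -0.75 to -0.68 for Cdk6 and -0.32 to -0.25 for Cdk4. They ran from 0.22 to 0.46 for E2f1 and -0.32 to -0.24 for Ccnd2. Of the calls at that limit among the other pathway genes, each held in 4 to 8 of the 8 fits and in 2 to 6 of the 6 with 1 library left out. The cause was not tested.

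Replicate numbers were not shown to pair the samples: deviations of same-numbered samples correlated at -0.11 to 0.047 between vehicle and the treated groups and -0.26 between DMSO and BI6727. With the replicate block, 0 of the 10 genes passed the stricter rule in any comparison. Of all 9518 genes, that rule called 224 higher and 229 lower with DMSO against vehicle in this fit. It called 210 higher and 268 lower with BI6727 against vehicle and 0 between BI6727 and DMSO. The calls at an adjusted p below 0.05 for Cdk2 (0.0586), E2f1 (0.0864) and Ccnd3 (0.0974) with DMSO against vehicle missed the limit (edgeR). So did Ccne1 (0.0600) with BI6727 against vehicle. With the pairing crossed, an alternative chosen after seeing the data, 0 of the 10 genes passed the stricter rule. Of the other pathway genes, 1 passed for DMSO against vehicle, 0 for BI6727 against DMSO and 2 for BI6727 against vehicle. Of all 9518 genes, 246 were called higher and 245 lower in the first comparison, 0 in the second, and 232 higher and 291 lower in the third.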
